A study of Mus musculus with 4 samples.

Results

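The nuclear genes of the mitochondrial respiratory chain and of the mitochondrial ribosome were compared between mouse epidermis labelled IL-36Ra-cKO and mouse epidermis labelled IL-36Ra fl/fl. Members were taken by symbol, as genes whose names begin with Nduf, Cox and a digit, Atp5, Uqcr, Sdh followed by a, b, c or d, Mrpl or Mrps. This gave 187 of the 17958 genes listed in the deposited table. They comprised 41 complex I subunits and 8 complex I assembly factors, 4 complex II subunits and 4 assembly factors, 8 complex III subunits, 16 complex IV subunits and 9 assembly factors, and 17 complex V subunits. A further 49 encode proteins of the large subunit and 29 proteins of the small subunit of the mitochondrial ribosome, and 2 are pseudogenes (Ndufab1-ps and Ndufs6b). The mitochondrially encoded subunits are not among them, since 0 mitochondrially encoded genes are listed in the table.

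The respiratory chain passes electrons from NADH (complex I) and succinate (complex II) through complex III to oxygen at complex IV, and complex V, the ATP synthase, uses the resulting proton gradient to make ATP. Most subunits are encoded in the nucleus and imported, while a few central subunits are encoded by mitochondrial DNA and made on the mitochondrial ribosome, whose own proteins are all nuclear-encoded. Complex IV has subunits with tissue-limited isoforms, of which Cox6a2, Cox7a1 and Cox8b are the forms of heart and skeletal muscle (the last pair also of brown fat), and Cox6a1, Cox7a2 and Cox8a their widely expressed counterparts.

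The cKO group held 2 libraries whose titles read IL-36Ra-cKO and whose genotype field reads IL-36Ra knockdown, and the fl/fl group held 2 libraries whose titles read IL-36Rafl/fl and whose genotype field reads WT. All 4 libraries are labelled as untreated and as keratinocytes of mouse epidermis. The labels name neither the Cre driver nor the age or sex of the mice, and do not say whether libraries come from separate animals or pools. The p-values therefore measure only the spread between these libraries, which may be technical.

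The libraries held 14723409 and 14622791 counts (cKO-labelled) and 15918854 and 16490602 counts (fl/fl-labelled). Il1f5, which encodes the IL-36 receptor antagonist named in the genotype, reached counts of 3258 and 2508 in the cKO-labelled libraries, against 3743 and 3489 in the fl/fl-labelled ones. Its log2 fold change was -0.24 ± 0.24 (SE), with an adjusted p of 0.509 by edgeR's quasi-likelihood test with Benjamini-Hochberg adjustment, so the label was not borne out by a loss of its transcript. Ddx3y, a Y-linked gene, had 28.6 and 36.4 TPM in the cKO-labelled libraries, against 0 and 0.02 TPM in the fl/fl-labelled libraries, so sex and genotype cannot be told apart. All 10 keratinocyte markers were detected in each library, with summed levels of 28573 and 28754 TPM in the cKO-labelled and 32776 and 27346 TPM in the fl/fl-labelled libraries. The second cKO-labelled library held 8.59 TPM summed over 12 hair follicle markers, of which 5 (Krt71, Krt31, Krt33a, Krt35 and Shh) were at 0, against 2887 TPM in the first cKO-labelled library and 6550 and 8272 TPM in the fl/fl-labelled libraries. In the same library the 21 skeletal muscle markers summed to 2743 TPM, against 100.5 TPM in the first cKO-labelled library and 193 and 228.6 TPM in the fl/fl-labelled libraries. In bulk samples such as these, fewer cells of a type and less RNA per cell cannot be told apart.

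Promoter sequences are shown for 6 members, chosen because the results turn on the contrast between muscle-type complex IV isoforms and widely expressed subunits. RefSeq (GRCm38.p6) held a 300-base promoter window around the annotated start for 157 of the 187 members. Promoters of respiratory genes are known for sites of nuclear respiratory factor 1 (NRF1), of the ETS factor GABP and of YY1, and promoters of muscle genes for E-boxes, which bind myogenic factors. In the following windows, written 5′ to 3′ on the strand of the gene, capitals mark GCGCATGC (NRF1 core), CCGGAAG (ETS core) and AAGATGGC (YY1) on either strand. In Cox8b and Cox7a1, but not in the other windows, capitals also mark CANNTG (E-box), which is its own reverse complement.
Cox8b promoter (chr7:140900397-140900696, minus strand): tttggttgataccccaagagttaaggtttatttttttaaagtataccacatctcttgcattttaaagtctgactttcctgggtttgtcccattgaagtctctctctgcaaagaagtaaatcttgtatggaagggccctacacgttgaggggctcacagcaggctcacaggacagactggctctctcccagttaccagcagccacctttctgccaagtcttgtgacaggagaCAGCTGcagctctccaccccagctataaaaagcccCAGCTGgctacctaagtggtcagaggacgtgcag
Cox7a1 promoter (chr7:30183921-30184220, plus strand): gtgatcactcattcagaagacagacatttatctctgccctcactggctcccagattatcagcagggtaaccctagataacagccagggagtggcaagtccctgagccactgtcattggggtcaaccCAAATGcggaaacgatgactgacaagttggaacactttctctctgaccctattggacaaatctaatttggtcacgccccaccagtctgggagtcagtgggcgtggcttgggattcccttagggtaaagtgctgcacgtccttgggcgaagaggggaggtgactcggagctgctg
Cox8a promoter (chr19:7217567-7217866, minus strand): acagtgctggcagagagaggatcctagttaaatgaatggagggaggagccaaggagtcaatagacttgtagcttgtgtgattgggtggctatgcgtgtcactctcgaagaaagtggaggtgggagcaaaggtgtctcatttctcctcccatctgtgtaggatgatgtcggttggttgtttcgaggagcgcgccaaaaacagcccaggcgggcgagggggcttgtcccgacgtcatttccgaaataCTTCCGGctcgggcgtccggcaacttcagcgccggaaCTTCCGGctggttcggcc
Cox6a1 promoter (chr5:115348909-115349208, minus strand): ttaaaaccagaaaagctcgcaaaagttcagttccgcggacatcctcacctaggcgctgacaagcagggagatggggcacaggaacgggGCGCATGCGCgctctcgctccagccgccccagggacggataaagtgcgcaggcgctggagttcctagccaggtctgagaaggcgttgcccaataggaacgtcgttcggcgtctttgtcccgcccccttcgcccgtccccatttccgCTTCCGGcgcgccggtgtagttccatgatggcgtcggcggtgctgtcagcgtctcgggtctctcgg
Ndufa6 promoter (chr15:82354242-82354541, minus strand): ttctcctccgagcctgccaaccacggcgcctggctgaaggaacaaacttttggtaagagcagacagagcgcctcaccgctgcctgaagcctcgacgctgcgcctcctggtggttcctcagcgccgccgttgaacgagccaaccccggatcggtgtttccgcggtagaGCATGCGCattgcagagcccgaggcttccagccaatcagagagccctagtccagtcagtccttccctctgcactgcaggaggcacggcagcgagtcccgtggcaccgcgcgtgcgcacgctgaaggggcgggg
Atp5j2 promoter (chr5:145191492-145191791, minus strand): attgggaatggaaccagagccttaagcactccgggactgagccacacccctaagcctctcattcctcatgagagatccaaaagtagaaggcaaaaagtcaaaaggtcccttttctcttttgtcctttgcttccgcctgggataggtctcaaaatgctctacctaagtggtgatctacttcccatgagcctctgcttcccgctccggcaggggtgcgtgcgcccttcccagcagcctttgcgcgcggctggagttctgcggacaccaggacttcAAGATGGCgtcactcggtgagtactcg

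Of the muscle-type isoforms, Cox8b and Cox7a1 had windows with E-boxes (2 in Cox8b and 1 in Cox7a1) and no NRF1, ETS or YY1 match. No window was held for Cox6a2, so the contrast does not cover it. Cox8a held 2 ETS matches and 1 E-box, as many E-boxes as Cox7a1, and Cox6a1 held 1 ETS match and a run in which 2 NRF1 matches on opposite strands overlap. Ndufa6 held 1 NRF1 match and Atp5j2, which encodes subunit f of the ATP synthase, held 1 YY1 match. Across all members with a window, an ETS match was present in 33.8%, against 15.6% of the 14098 genes of the deposited table with a window and 9.93% of all 27025 genes with one. NRF1 matches were present in 12.7% of members, 4.7% of the genes of the table and 3.05% of all genes. YY1 matches were present in 15.9% of members, 4.1% of the genes of the table and 3.19% of all genes. E-boxes were present in 66.9% of members, 70.3% of the genes of the table and 75% of all genes. The estrogen-related receptor sequence TCAAGGTCA was present in 1.27% of members, 0.34% of the genes of the table and 0.466% of all genes. CCAAT was present in 40.1% of members, 42.4% of the genes of the table and 41.1% of all genes. Members higher in the cKO-labelled libraries at an unadjusted p under 0.05 carried the ETS match in 36% of 50 cases, against 33% of the 106 other members tested. The corresponding NRF1 shares were 14% and 12.3%, and the YY1 shares 14% and 17%. These matches are descriptions of letters in the window and no sign of binding.

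Expression of the members as a whole leaned towards the cKO-labelled libraries, but no single member passed the adjusted threshold of 0.05. Of the 184 members with enough counts to be tested, 160 had a positive and 24 a negative log2 fold change, with a median of 0.37, against 0.00 over all 14459 genes tested. The 3 members left untested were the 2 pseudogenes and Ndufb4b. By edgeR's quasi-likelihood test with Benjamini-Hochberg adjustment 0 of the 184 members passed, against 0.0277% of all genes (4 genes, of which 3 are Y-linked). At an unadjusted p under 0.05 there were 57 members higher in the cKO-labelled libraries (31%), against 16.5% of all genes. In the opposite direction 1 member (0.543%) was lower at that p, against 15.6% of all genes. DESeq2 called 29 of 184 members higher at an adjusted p under 0.05, against 7.93% of all genes, and 0 lower, against 9.88% of all genes. In the median over members the libraries stood, on the log2 CPM scale relative to the fl/fl mean, at 0.41 and 0.27 for the cKO-labelled and at -0.10 and 0.10 for the fl/fl-labelled libraries. Both cKO-labelled libraries lay above both fl/fl-labelled libraries. On the same scale the 543 tested genes with an effective length under 500 bases (defined below) stood at 0.59 and 0.38 in the cKO-labelled libraries. In the fl/fl-labelled libraries these short genes stood at -0.14 and 0.14. The 13916 longer genes stood at -0.02 and -0.02 in the cKO-labelled libraries, against -0.02 and 0.02. Markers of some cell types moved with the groups as well. For T cells 4 markers summed to 52.9 and 59.8 TPM in the cKO-labelled libraries, against 21.2 and 19.5 TPM in the fl/fl-labelled libraries, none at 0. For melanocytes 5 markers ran the other way, at 184.1 and 11.25 TPM in the cKO-labelled and 473 and 454 TPM in the fl/fl-labelled libraries. The hair follicle sum given above was also lower in both cKO-labelled libraries. The part of these cell types in the values of the members was not tested.

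On the TPM scale, which corrects for transcript length, the lean was smaller. Summed over all 187 members the level was 42197 and 43652 TPM in the cKO-labelled libraries, against 36376 and 40977 TPM in the fl/fl-labelled libraries. The group means were 42924 ± 1028 and 38676 ± 3253 TPM (SD, n = 2 each). Both cKO-labelled libraries exceeded both fl/fl-labelled libraries for 75 of the 184 tested members (40.8%), against 25.2% of all genes. Both lay below for 34 tested members (18.5%), against 43.4% of all genes, and the groups overlapped for the other 75. The first fl/fl-labelled library was the lowest of the 4 for 107 tested members, and without it the median log2 fold change of the members was 0.26 and 23 members (12.5%) were higher at an unadjusted p under 0.05, against 7.13% of all genes. With log2(TPM + 1) and limma the median over members was 0.10, on a scale where the median over all genes was itself -0.16.

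Transcript length moved with the difference. The effective length, the number of positions at which a fragment of the library's size can start on a transcript, was derived from the deposited counts and FPKM values. Relative to the fl/fl mean it was longer by a median of 66.5 bases in the first and 21.6 bases in the second cKO-labelled library, while the fl/fl-labelled libraries differed from their own mean by 1.33 bases in either direction. This is a small part of a long transcript and a large part of a short one. Sdha, the flavoprotein of complex II, had effective lengths of 2628 and 2583 bases in the cKO-labelled and 2563 and 2560 bases in the fl/fl-labelled libraries. Atp5k, subunit e of the ATP synthase, had 96.9 and 63.7 bases in the cKO-labelled and 49.9 and 47.8 bases in the fl/fl-labelled libraries. Atp5k was named after its values were seen, because it had the highest log2 fold change of complex V, at 1.36 on counts and 0.65 once each library's effective length entered the edgeR fit as an offset. Ndufb1, a short accessory subunit of complex I that was likewise chosen after its values were seen, reached counts of 1135 and 1123 in the cKO-labelled libraries, against 650 and 803 in the fl/fl-labelled ones. Its levels per length were 803 and 1151 TPM in the cKO-labelled and 959 and 1008 TPM in the fl/fl-labelled libraries, so the groups overlapped on that scale.

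The members were therefore read in both fits. With the effective-length offset 44 of 184 members were higher at an unadjusted p under 0.05 (23.9%), against 16.9% of all genes, and 42 of them were also among the 57 of the fit on counts. There were 2 members lower at that p (1.09%), against 14.1% of all genes, and the median over members was 0.29. None of the 184 members passed the adjusted threshold in that edgeR fit with Benjamini-Hochberg adjustment, against 0.0207% of all genes. For the 80 members with a median effective length under 500 bases, the median log2 fold change was 0.60 on counts and 0.36 with the offset. The 543 tested genes of that length had medians of 0.50 and 0.33. For the 104 longer members the medians were 0.24 and 0.20, against -0.02 and -0.01 over all 13916 tested genes of that length. With the trend of fold change on length removed, the medians were 0.48 for the shorter members, against 0.38 over all genes under 500 bases, and 0.20 for the longer members, against 0.10 over all longer genes. At an unadjusted p under 0.05 the share of longer members that were higher was near that of all longer genes, at 16.3% against 15.7% on counts and 18.3% against 16.5% with the offset. Of the shorter members 50% were higher on counts and 31.2% with the offset, against 37.9% and 26.9% of all genes of that length. On counts 0.962% of the longer members were lower at that p, against 15.8% of all longer genes. Of the shorter members 0% were lower, against 10.7% of all genes of that length.

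**Figure D1:**
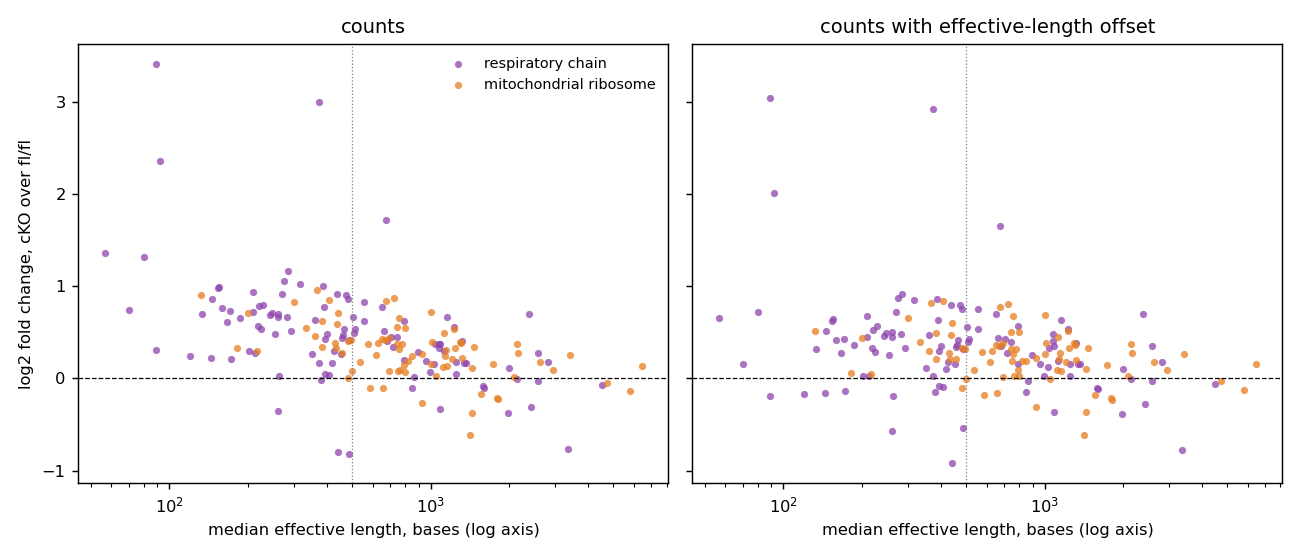
Log2 fold change (cKO-labelled over fl/fl-labelled libraries) of the 184 tested members against their median effective length in bases on a log axis, from counts (left) and with the effective-length offset (right); each point is 1 gene, coloured by respiratory chain or mitochondrial ribosome, and the dotted line marks 500 bases. The short members on the left reach higher values on counts than with the offset; Spearman's correlation across members was -0.58 on counts and -0.34 with the offset.

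Across genes, Spearman's correlation between effective length and log2 fold change was -0.58 over the 184 members and -0.29 over all 14459 genes on counts. With the offset the values were -0.34 and -0.26. Genes are not independent replicates, and these values share the same 4 libraries. What lies behind the difference in effective length between the libraries was not tested.

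Classes of members differed in their medians, and the differences between classes were not tested. The median log2 fold change was 0.59 for complex IV subunits, 0.52 for complex I subunits, 0.42 for complex V, 0.37 for complex III and 0.14 for complex II. With the effective-length offset these medians were 0.35, 0.41, 0.32, 0.28 and 0.09 in the same order. The 49 proteins of the large mitochondrial ribosomal subunit had a median of 0.25 on counts and 0.21 with the offset, and the 29 of the small subunit 0.33 and 0.28. Of the 106 tested respiratory chain members 43 were higher at an unadjusted p under 0.05 (40.6%), against 14 of 78 members of the mitochondrial ribosome (17.9%). With the offset these counts were 31 (29.2%) and 13 (16.7%). Over all genes the shares were 16.5% on counts and 16.9% with the offset, so the mitochondrial ribosome stood near all genes in the share higher. In the share lower on counts it stood apart, at 1.28% against 15.6% of all genes. Its median was 0.31 on counts, against 0.00 over all genes. Over all genes under 500 bases the shares higher were 37.9% and 26.9%. The respiratory chain holds longer members too, so its shares are not matched to that set by length. Respiratory chain members are shorter, with a median effective length of 441 bases, against 785 bases for the mitochondrial ribosome.

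**Figure D2:**
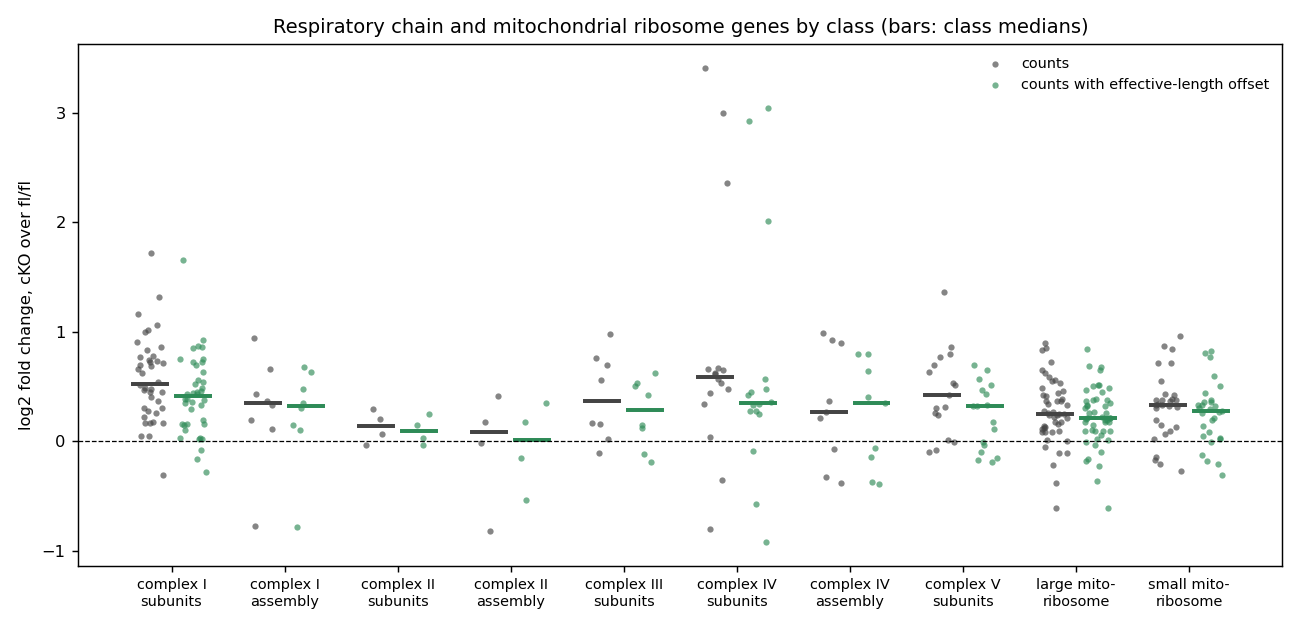
Log2 fold change (cKO-labelled over fl/fl-labelled libraries) of each tested member by class, from counts (dark points, left of each pair) and with the effective-length offset (green points, right); bars are class medians. Most points of each class lie above 0 on counts, except for the assembly factors of complex II (2 of 4), and the 3 points above 2 in complex IV are the muscle-type isoforms.

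Summed per length, complex I subunits stood at 11122 and 11248 TPM in the cKO-labelled libraries, against 9160 and 10121 TPM in the fl/fl-labelled libraries. Complex III stood at 4208 and 4191 TPM in the cKO-labelled and 3721 and 3883 TPM in the fl/fl-labelled libraries. The sums of complex I, complex III, complex IV and the small ribosomal subunit did not overlap between groups, with both cKO-labelled libraries above. Nor did the sum of all 543 genes under 500 bases, at 437585 and 439143 TPM in the cKO-labelled libraries, against 354631 and 406417 TPM in the fl/fl-labelled libraries. Complex V had 12481 and 13567 TPM in the cKO-labelled libraries, against 11153 and 13024 TPM in the fl/fl-labelled libraries, and those ranges overlapped. So did the sums of complex II (324.3 and 347 TPM in the cKO-labelled, 337.6 and 369 TPM in the fl/fl-labelled libraries) and of the large ribosomal subunit.

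**Figure D3:**
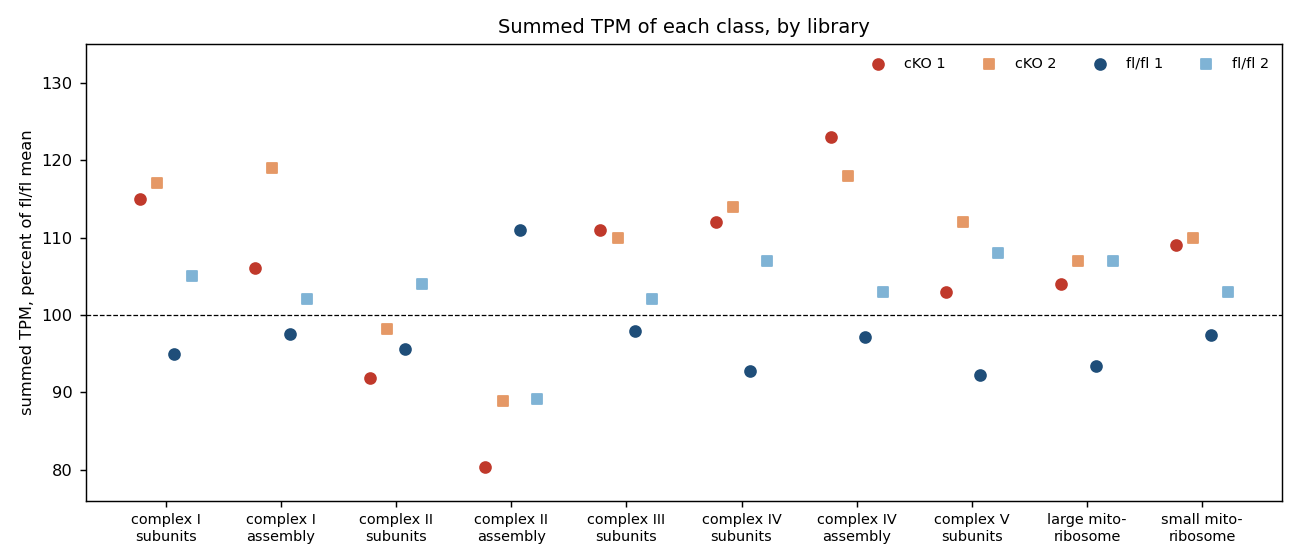
Summed TPM of the members of each class in each library, as a percentage of the mean of both fl/fl-labelled libraries (dashed line at 100); cKO 1 and cKO 2 are the cKO-labelled libraries. Complex I subunits stand at 115% and 117% in the cKO-labelled libraries, against 95% and 105% in the fl/fl-labelled libraries (all 543 genes under 500 bases stand at 115% and 115%, against 93.2% and 107%), whereas the assembly factors of complex II stand at 80.3% and 88.9%, against 111% and 89.2%.

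Complex I, the NADH dehydrogenase, had the largest number of members higher in the cKO-labelled libraries. Of its 40 tested subunits 39 had a positive log2 fold change and 22 were higher at an unadjusted p under 0.05 (55%), or 18 with the effective-length offset (45%). The shares over all genes under 500 bases were 37.9% and 26.9%, and the median effective length of the subunits was 400 bases. The 7 core subunits, which carry the flavin and iron-sulfur clusters, had a median of 0.40 on counts and 0.38 with the offset. The other 33 tested subunits had medians of 0.62 and 0.43. Summed levels of the core subunits were 850.6 and 822.7 TPM in the cKO-labelled libraries, against 711.1 and 782.3 TPM in the fl/fl-labelled libraries. Without the first cKO-labelled library the subunits had a median of 0.43, and without the second a median of 0.64. All genes under 500 bases had medians of 0.37 and 0.58 in those fits.

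Ndufa4l2, a paralogue of Ndufa4 known for its induction by low oxygen, had the smallest p of all members. Its level was 276 and 333 TPM in the cKO-labelled libraries, against 113 and 106 TPM in the fl/fl-labelled libraries. Both cKO-labelled libraries were above both fl/fl-labelled ones, with a log2 fold change of 1.72 ± 0.17 (SE). The adjusted p was 0.0656 by edgeR's quasi-likelihood test with Benjamini-Hochberg adjustment, and 0.0779 in the same test with the effective-length offset, where the log2 fold change was 1.65 ± 0.17. DESeq2 gave an adjusted p of 7.97e-12 for the same 4 libraries. Leaving out 1 library at a time gave log2 fold changes from 1.64 to 1.79 in edgeR. Ndufa4, long counted with complex I and now placed in complex IV, was the most abundant member of the class and had 1234 and 1357 TPM in the cKO-labelled libraries, against 1385 and 1488 TPM in the fl/fl-labelled libraries. Its log2 fold change was 0.28 on counts and 0.03 with the offset, and its TPM was lower in both cKO-labelled libraries. Ndufa4l2 accordingly made up 18.3% and 19.7% of the summed TPM of the pair in the cKO-labelled libraries, against 7.55% and 6.66% in the fl/fl-labelled libraries.

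Ndufa6, an accessory subunit of the LYR family, had 366 and 379 TPM in the cKO-labelled libraries, against 219 and 244 TPM in the fl/fl-labelled libraries. The groups did not overlap, and the log2 fold change was 1.06 ± 0.17 (SE), or 0.87 with the offset, with an adjusted p of 0.0691 by edgeR's quasi-likelihood test with Benjamini-Hochberg adjustment. Ndufs1, the largest core subunit, was the only tested subunit of complex I with a negative log2 fold change on counts. It had 43.5 and 50.7 TPM in the cKO-labelled libraries, against 63.5 and 66.1 TPM in the fl/fl-labelled libraries. Its log2 fold change was -0.31 ± 0.17 (SE), with an adjusted p of 0.255 in the same edgeR test with Benjamini-Hochberg adjustment.

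The 8 assembly factors of complex I were less abundant, with summed levels of 196.3 and 220.8 TPM in the cKO-labelled libraries, against 180.4 and 189.4 TPM in the fl/fl-labelled libraries. Their median was 0.35 on counts and 0.32 with the offset. Of them 1, Ndufaf8, was higher at an unadjusted p under 0.05 (12.5%, against 16.5% of all genes). Ndufaf8, which works with the assembly factor Ndufaf5, had 85.9 and 86.3 TPM in the cKO-labelled libraries, against 49.1 and 72.3 TPM in the fl/fl-labelled libraries. Ndufaf3 and Ndufaf4 act together early in assembly, yet their values leaned in opposite directions. Ndufaf3 had 16.3 and 10.9 TPM in the cKO-labelled and 9.29 and 10.7 TPM in the fl/fl-labelled libraries, a log2 fold change of 0.66 ± 0.30 (SE). Ndufaf4 had 11.3 and 16.8 TPM in the cKO-labelled and 35.9 and 18.5 TPM in the fl/fl-labelled libraries, a log2 fold change of -0.77 ± 0.36 (SE). The high value of Ndufaf4 belonged to the first fl/fl-labelled library alone, and neither gene passed the threshold.

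Complex II, the succinate dehydrogenase shared with the citrate cycle, showed 0 of 4 subunits at an unadjusted p under 0.05. Sdhc, a membrane anchor, had 75.2 and 85.5 TPM in the cKO-labelled and 73.6 and 79.3 TPM in the fl/fl-labelled libraries. Sdhb, the iron-sulfur subunit, had 107 and 94.1 TPM in the cKO-labelled and 90.0 and 115 TPM in the fl/fl-labelled libraries, so that its groups overlapped too. Sdha had 57.8 and 59.3 TPM in the cKO-labelled libraries, against 68.6 and 67.2 TPM in the fl/fl-labelled libraries, lower per length in both. So were 44.1% of all tested genes of 500 bases or more. The log2 fold changes on counts were 0.29 ± 0.15 for Sdhc, 0.20 ± 0.22 for Sdhb and -0.03 ± 0.16 for Sdha (SE). Among the 4 assembly factors of complex II, log2 fold changes ran from -0.82 for Sdhaf3 to 0.41 for Sdhaf1. Sdhaf3 had 15.4 and 11.9 TPM in the cKO-labelled and 31.1 and 13.7 TPM in the fl/fl-labelled libraries, with the first fl/fl-labelled library again apart from the other 3. Sdhaf2, which adds the flavin to Sdha, had 16.4 and 18.3 TPM in the cKO-labelled and 17.4 and 17.1 TPM in the fl/fl-labelled libraries.

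In complex III 3 of 8 subunits were higher at an unadjusted p under 0.05 (37.5%, against 16.5% of all genes). With the effective-length offset 1 was (12.5%, below the 16.9% of all genes). Uqcr11, a small subunit of the complex, had 859 and 705 TPM in the cKO-labelled libraries, against 524 and 634 TPM in the fl/fl-labelled libraries. Uqcrh, the hinge subunit near cytochrome c1, was the most abundant and had 1406 and 1542 TPM in the cKO-labelled libraries, against 1054 and 1308 TPM in the fl/fl-labelled libraries. Neither gene overlapped between groups, and their log2 fold changes were 0.98 ± 0.28 and 0.70 ± 0.22 (SE) on counts, or 0.62 and 0.50 with the offset. Uqcrc2, a long core subunit, ran the other way, at 108 and 114 TPM in the cKO-labelled libraries, against 134 and 140 TPM in the fl/fl-labelled libraries. Its log2 fold change on counts was -0.11 ± 0.17 (SE). Per length, 44.1% of all tested genes of 500 bases or more were likewise lower in both cKO-labelled libraries.

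Complex IV, cytochrome c oxidase, had 8 of 16 subunits higher at an unadjusted p under 0.05 (50%), and 3 with the offset (18.8%). The shares over all genes were 16.5% and 16.9%, and over all genes under 500 bases 37.9% and 26.9%. The median effective length of the subunits was 272 bases. Leaving aside the muscle-type isoforms, 7 of 13 were higher on counts (53.8%) and 2 with the offset (15.4%). The median of these 13 was 0.53 on counts and 0.33 with the offset. Cox6c was the most abundant, with 1286 and 1508 TPM in the cKO-labelled and 1147 and 1373 TPM in the fl/fl-labelled libraries, ranges that overlapped. Cox7a2l, known as a factor that joins complexes III and IV, had 295 and 358 TPM in the cKO-labelled libraries, against 232 and 263 TPM in the fl/fl-labelled libraries. Its log2 fold change was 0.62 ± 0.20 (SE) on counts and 0.57 with the offset. Cox6b1 had 1385 and 1406 TPM in the cKO-labelled libraries, against 1107 and 1349 TPM in the fl/fl-labelled libraries, with a log2 fold change of 0.65 ± 0.23 (SE) that was 0.36 with the offset.

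The muscle-type isoforms followed the second cKO-labelled library. Cox6a2 had 1.12 and 67.5 TPM in the cKO-labelled libraries, against 3.81 and 6.08 TPM in the fl/fl-labelled libraries. Cox7a1 had 4.95 and 70.3 TPM in the cKO-labelled and 9.98 and 10.3 TPM in the fl/fl-labelled libraries. Per length, the second cKO-labelled library was the highest and the first the lowest of the 4 for both genes, so the groups overlapped. The counts behind these levels were low outside that library, with 6 and 325 for Cox6a2 and 9 and 89 for Cox7a1 in the cKO-labelled libraries, against 15 and 29 (Cox6a2) and 9 and 11 (Cox7a1) in those labelled fl/fl. Cox8b had 19.5 and 106 TPM in the cKO-labelled libraries, against 7.99 and 8.66 TPM in the fl/fl-labelled libraries, from 33 and 130 counts and from 7 and 9 counts. Here both cKO-labelled libraries were above both fl/fl-labelled libraries, the second again the highest.

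Log2 fold changes over the 4 libraries were 3.00 ± 1.60 for Cox6a2, 2.36 ± 1.09 for Cox7a1 and 3.41 ± 0.79 for Cox8b (SE). The adjusted p-values by edgeR's quasi-likelihood test with Benjamini-Hochberg adjustment were 0.248, 0.201 and 0.0858. Without the second cKO-labelled library the log2 fold changes were -1.72 for Cox6a2, -0.03 for Cox7a1 and 2.15 for Cox8b. Without the first they were 3.96, 3.21 and 4.08. Cox6a2 made up 0.165% and 11.5% of the summed TPM of itself and Cox6a1 in the cKO-labelled libraries, against 0.69% and 1.02% in the fl/fl-labelled libraries. The share of Cox7a1 beside Cox7a2 was 1.17% and 15.2% in the cKO-labelled libraries, against 2.88% and 2.83% in the fl/fl-labelled libraries. The share of Cox8b beside Cox8a was 2.25% and 13% in the cKO-labelled libraries, against 1.32% and 1.22% in those labelled fl/fl. In the second cKO-labelled library all 3 shares lay between 11.5% and 15.2%, and in each other library all 3 were at or below 2.88%.

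**Figure D4:**
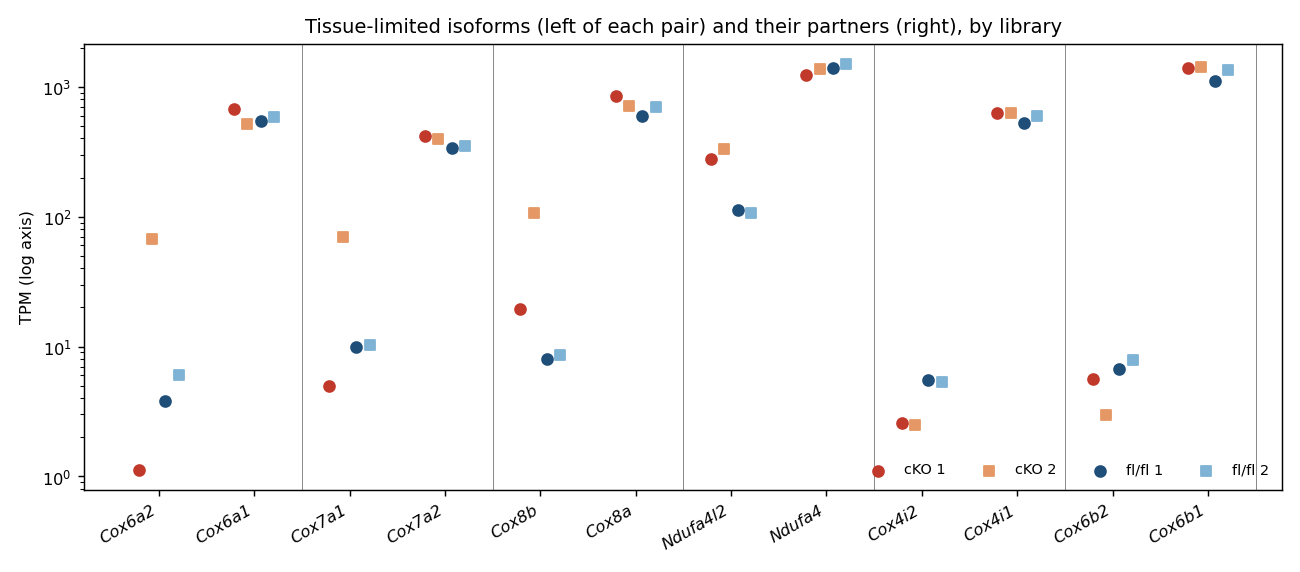
TPM on a log axis of each tissue-limited isoform (left of each pair) and its widely expressed partner (right) in the 4 libraries; cKO 1 and cKO 2 are the cKO-labelled libraries. Cox6a2, Cox7a1 and Cox8b are highest in the second cKO-labelled library, Ndufa4l2 is higher in both cKO-labelled libraries, and the partners lie within a narrow band.

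Most skeletal muscle markers were, like these isoforms, highest in the second cKO-labelled library. Most were lowest in the first, as were Cox6a2 and Cox7a1 per length. Cox8b differed there, at 19.5 TPM, against 7.99 and 8.66 TPM in the fl/fl-labelled libraries. Of 21 skeletal muscle markers 20 were highest in the second cKO-labelled library and 18 were lowest in the first, and none was at 0 in any library. Acta1, skeletal alpha-actin, had 5.59 and 296 TPM in the cKO-labelled libraries, against 22.8 and 29.5 TPM in the fl/fl-labelled libraries. Ckm, the muscle creatine kinase, had 6.17 and 138 TPM in the cKO-labelled and 11.8 and 14.3 TPM in the fl/fl-labelled libraries, and Mylpf, a fast-muscle light chain, 22.6 and 277 TPM against 19.7 and 37.0 TPM. Myh4, the myosin of the fastest fibres, was the exception, at 1.27 and 1.64 TPM in the cKO-labelled and 3.51 and 3.15 TPM in the fl/fl-labelled libraries. The cardiac myosins Myh6 and Myh7 were at 0 in the second cKO-labelled library and in both fl/fl-labelled libraries, and at 0.11 and 0.01 TPM in the first. The 9 slow or cardiac muscle markers summed to 26.1 and 21.9 TPM in the cKO-labelled libraries, against 11.6 and 14.7 TPM in the fl/fl-labelled libraries. Most of that sum was Tnnt2, at 20.8 and 20.6 TPM in the cKO-labelled and 7.06 and 9.34 TPM in the fl/fl-labelled libraries. Tnni1 ran the other way, at 1.99 and 0.21 TPM against 2.79 and 4.36 TPM. The 5 erythroid markers, like most skeletal muscle markers, were highest in the second cKO-labelled library. They summed to 202.8 and 1190 TPM in the cKO-labelled libraries, against 275.2 and 308.8 TPM in the fl/fl-labelled libraries. Brown fat markers summed to 146 and 16.7 TPM in the cKO-labelled libraries, against 121.4 and 139.7 TPM in the fl/fl-labelled libraries. Most of that sum was Elovl3 (84.7 and 9.23 against 82.9 and 99.4 TPM) and Cidea (52.9 and 5.2 against 27.0 and 31.8 TPM). Of the 5 brown fat markers 3 were lowest in the second cKO-labelled library. Ucp1, the uncoupling protein of brown fat, stood near the floor, at 0.06 and 0.23 TPM in the cKO-labelled libraries, against 0.07 and 0 TPM in the fl/fl-labelled libraries. The 6 sebaceous markers moved the same way as the brown fat sum, at 74.3 and 16.5 TPM against 65.5 and 68.0 TPM. A presence of brown fat was not tested. The part of muscle or erythroid transcripts in the values of the 3 isoforms was not tested.

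The widely expressed partners varied little by comparison. Cox6a1 had 676 and 517 TPM in the cKO-labelled and 548 and 589 TPM in the fl/fl-labelled libraries, with the groups overlapping. Cox7a2 had 419.6 and 393 TPM in the cKO-labelled libraries, against 336 and 352 TPM in the fl/fl-labelled libraries. Cox8a had 846 and 712 TPM in the cKO-labelled libraries, against 596 and 702 TPM in the fl/fl-labelled libraries. The log2 fold changes were 0.48 ± 0.27, 0.53 ± 0.19 and 0.66 ± 0.25 (SE) on counts for the 3 genes in that order, and 0.25, 0.42 and 0.45 with the offset. Cox4i2, the isoform of lung and of low oxygen, had 2.59 and 2.47 TPM in the cKO-labelled libraries, against 5.57 and 5.30 TPM in the fl/fl-labelled libraries, from 14 to 30 counts a library. It was lower in both cKO-labelled libraries, with a log2 fold change of -0.80 ± 0.36 (SE), while its partner Cox4i1 had 622 and 623 TPM in the cKO-labelled and 528 and 590 TPM in the fl/fl-labelled libraries. Cox6b2, the isoform of testis, had 5.59 and 2.96 TPM in the cKO-labelled libraries, against 6.71 and 7.85 TPM in the fl/fl-labelled libraries. Cox7b had 257 and 239 TPM in the cKO-labelled and 207 and 255 TPM in the fl/fl-labelled libraries, which overlapped, and Cox7b2 and Cox8c were not analysed here.

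Among the 9 assembly factors of complex IV, 3 were higher at an unadjusted p under 0.05 on counts (33.3%, against 16.5% of all genes), and as many with the offset. Cox19, which takes part in copper handling between mitochondria and cytosol, had 91.9 and 91.5 TPM in the cKO-labelled libraries, against 55.2 and 64.3 TPM in the fl/fl-labelled libraries. Cox14, which holds newly made Cox1 ready for assembly, had 116 and 107 TPM in the cKO-labelled libraries, against 67.5 and 77.2 TPM in the fl/fl-labelled libraries. Both genes were separate between groups, with log2 fold changes of 0.90 ± 0.18 and 0.92 ± 0.19 (SE) and 0.80 each with the offset. The adjusted p-values were 0.079 and 0.080 by edgeR's quasi-likelihood test with Benjamini-Hochberg adjustment. Cox17, the copper chaperone, was the most abundant factor, at 289.9 and 239 TPM in the cKO-labelled libraries, against 152 and 233 TPM in the fl/fl-labelled libraries. Cox18, which inserts the end of Cox2 into the membrane, had 4.78 and 4.54 TPM in the cKO-labelled libraries, against 7 and 6.68 TPM in the fl/fl-labelled libraries. Cox11, needed for copper insertion into Cox1, had 6.95 and 10.3 TPM in the cKO-labelled and 16.2 and 9.42 TPM in the fl/fl-labelled libraries. The last pair leaned the other way, with log2 fold changes of -0.33 ± 0.26 and -0.38 ± 0.33 (SE).

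In complex V, the ATP synthase, 6 of 17 subunits were higher at an unadjusted p under 0.05 (35.3%), and 5 with the offset (29.4%). The shares of all genes under 500 bases were 37.9% and 26.9%, but some of these subunits are longer. Atp5l, subunit g of the membrane part and the most abundant of all members, had 1740 and 2067 TPM in the cKO-labelled libraries, against 1385 and 1513 TPM in the fl/fl-labelled libraries. Atp5j2, subunit f, had 1326 and 1553 TPM in the cKO-labelled libraries, against 1028 and 1256 TPM in the fl/fl-labelled libraries. Both were higher in both cKO-labelled libraries, with log2 fold changes of 0.80 ± 0.19 and 0.86 ± 0.21 (SE), or 0.57 and 0.51 with the offset. Per length, 6 of the 17 subunits were above both fl/fl-labelled libraries in both cKO-labelled libraries (35.3%, against 25.2% of all genes tested). Another 5 were below (29.4%, against 43.4% of all genes tested). Atp5b, the catalytic beta subunit, had 486 and 478 TPM in the cKO-labelled libraries, against 566 and 602 TPM in the fl/fl-labelled libraries. Atp5pb, subunit b of the peripheral stalk, had 400.1 and 414 TPM in the cKO-labelled libraries, against 548 and 475 TPM in the fl/fl-labelled libraries. Both were lower per length in both cKO-labelled libraries, with log2 fold changes on counts of -0.08 ± 0.20 and -0.10 ± 0.19 (SE).

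**Figure D5:**
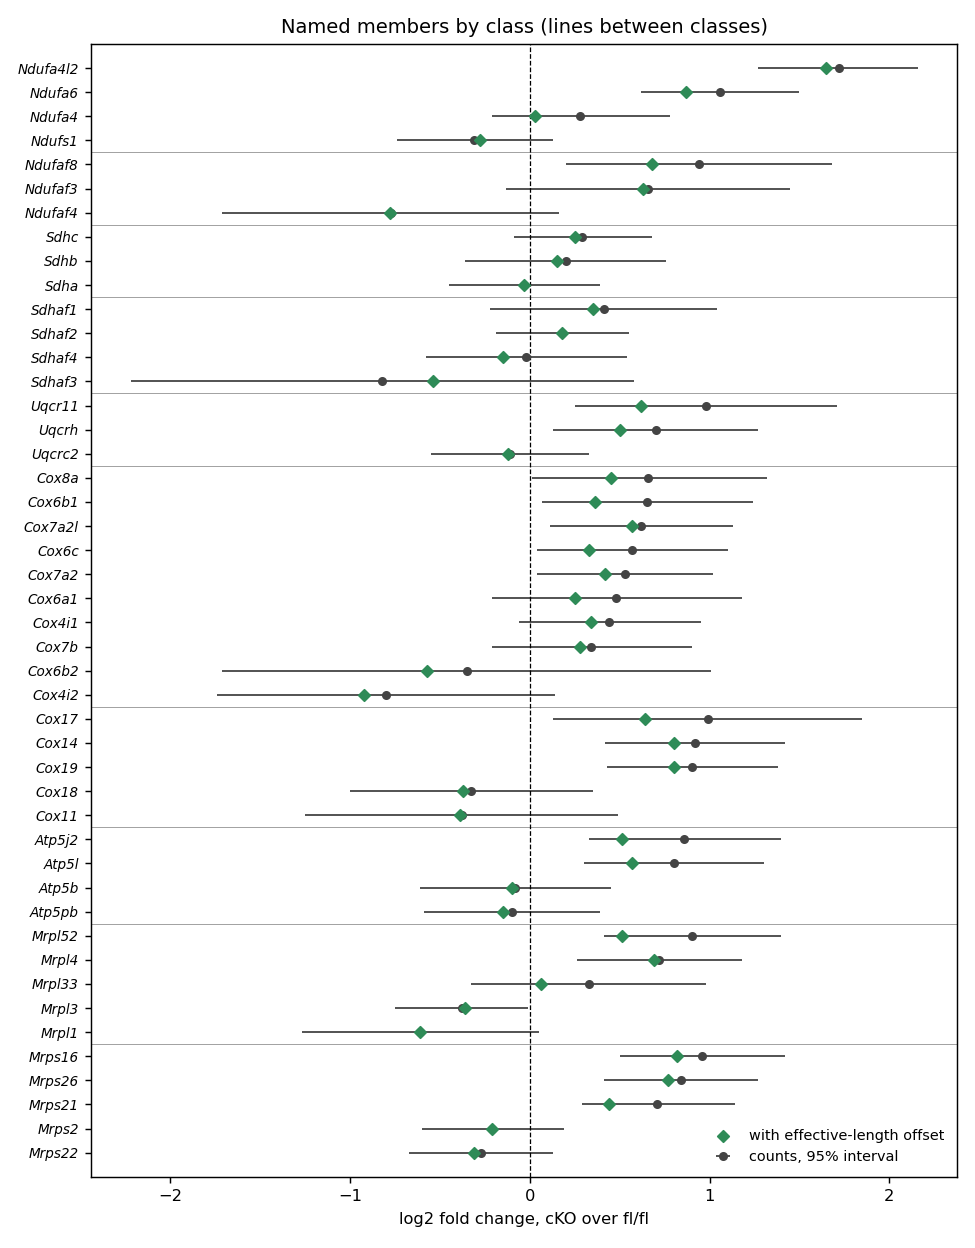
Log2 fold change (cKO-labelled over fl/fl-labelled libraries) of the named members other than the muscle-type isoforms, with 95% intervals from the fit on counts (dark points and lines) and the value with the effective-length offset (green diamonds); horizontal lines separate classes in the order of the text. Ndufa4l2 has the highest value at 1.72, and the diamonds of short genes such as Uqcr11 (0.62) lie left of their points (0.98).

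In the mitochondrial ribosome 43 of 49 proteins of the large subunit had a positive log2 fold change, 7 were higher at an unadjusted p under 0.05 and 1 was lower. The share higher (14.3%, or 12.2% with the offset) was below that of all genes (16.5% and 16.9%). The share lower on counts (2.04%) was also below that of all genes (15.6%). Mrpl52 had 339.8 and 353 TPM in the cKO-labelled libraries, against 264 and 286 TPM in the fl/fl-labelled libraries. Mrpl4 had 52.6 and 46.1 TPM in the cKO-labelled libraries, against 34.2 and 35.4 TPM in the fl/fl-labelled libraries. The groups were separate for both genes, with log2 fold changes of 0.90 ± 0.19 and 0.72 ± 0.17 (SE), or 0.51 and 0.69 with the offset. Mrpl3 was the 1 member of the whole set that was lower at an unadjusted p under 0.05 on counts, at 29.7 and 29.4 TPM in the cKO-labelled libraries, against 43.5 and 42.6 TPM in the fl/fl-labelled libraries. Its log2 fold change was -0.38 ± 0.14 (SE), with an adjusted p of 0.148 by edgeR's quasi-likelihood test with Benjamini-Hochberg adjustment. Mrpl1 had 16.1 and 15.3 TPM in the cKO-labelled libraries, against 33.1 and 21.5 TPM in the fl/fl-labelled libraries, a log2 fold change of -0.61 ± 0.25 (SE). Mrpl33, the most abundant protein of the large subunit, had 239.7 and 398 TPM in the cKO-labelled and 288 and 399.9 TPM in the fl/fl-labelled libraries and did not separate the groups.

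Of the 29 proteins of the small subunit 25 had a positive log2 fold change, and 7 were higher at an unadjusted p under 0.05 in each fit (24.1%, against 16.5% and 16.9% of all genes). Mrps16 had 132 and 130.4 TPM in the cKO-labelled libraries, against 78.9 and 89.6 TPM in the fl/fl-labelled libraries. Mrps26 had 66.6 and 70.5 TPM in the cKO-labelled libraries, against 42.8 and 48.1 TPM in the fl/fl-labelled libraries. These were the leading proteins of the small subunit by p, with log2 fold changes of 0.96 ± 0.18 and 0.84 ± 0.16 (SE), or 0.82 and 0.77 with the offset, and adjusted p-values of 0.074 and 0.078 by edgeR's quasi-likelihood test with Benjamini-Hochberg adjustment. Mrps21, the most abundant, had 370.0 and 389 TPM in the cKO-labelled libraries, against 305 and 326 TPM in the fl/fl-labelled libraries. Mrps22 had 29.2 and 31.1 TPM in the cKO-labelled libraries, against 42.0 and 42.7 TPM in the fl/fl-labelled libraries, and Mrps2 had 16.5 and 17.3 TPM against 22.6 and 21.7 TPM. Both were lower per length in both cKO-labelled libraries, as were 43.4% of all genes tested. Their log2 fold changes on counts were -0.27 ± 0.15 and -0.21 ± 0.15 (SE).

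Each cKO-labelled library was left out in turn. Without the second, which is rich in muscle transcripts, 59 members (32.1%) were higher at an unadjusted p under 0.05, against 14.4% of all genes, with a median of 0.42. The library kept in that fit has the larger excess of effective length, and all genes under 500 bases had a median of 0.58 in it, against 0.50 with all 4 libraries. Without the first cKO-labelled library the count was 26 (14.1%), against 12% of all genes, and the median 0.27. Genes under 500 bases then had a median of 0.37. In that fit 887 of 14855 genes (5.97%) passed the adjusted threshold of edgeR's quasi-likelihood test with Benjamini-Hochberg adjustment, and 4 of 184 members did, a smaller share. These 4 members were Ndufa4l2, Cox6a2, Cox7a1 and Cox8b. In such fits the lone cKO-labelled library is assumed to vary like the fl/fl-labelled libraries.

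Other nuclear genes of mitochondria were counted in the same fit on counts. The shares over all genes, at an unadjusted p under 0.05, were 16.5% higher and 15.6% lower. Of 39 tested genes for cytochrome c and further assembly factors, 7 (17.9%) were higher at an unadjusted p under 0.05 and 1 was lower, with a median log2 fold change of 0.08. Uqcc2 and Uqcc3, assembly factors of complex III, led them with 1.03 ± 0.18 and 1.11 ± 0.23 (SE). Uqcc2 had 447 and 456 TPM in the cKO-labelled libraries, against 294 and 320.4 TPM in the fl/fl-labelled libraries. Cyc1, cytochrome c1, had a log2 fold change of 0.24 ± 0.16 and Cycs, cytochrome c, of -0.57 ± 0.29 (SE), with 75.7 and 97.6 TPM for Cycs in the cKO-labelled libraries, against 179 and 111 TPM in the fl/fl-labelled libraries. Among 17 genes of the citrate cycle and pyruvate dehydrogenase 0 were higher and 2 lower at that p (Sucla2 at -0.46 and Idh3a at -0.61), with a median of 0.01. Of 21 genes of mitochondrial translation and RNA 4 (19%) were higher and 0 lower, with a median of 0.24, led by Gadd45gip1 (0.79) and Dap3 (0.51), both of which also belong to the mitochondrial ribosome. Of 24 import genes 4 (16.7%) were higher and 2 lower, with a median of 0.17, Tomm7 standing at 0.87 and Timm8a1 at -0.75. Of 6 carriers and porins 0 passed in either direction, with a median of -0.07, Slc25a5 standing at -0.31 and Vdac1 at 0.23. In the lists with members higher, that share was near the one over all genes.

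Of 11 regulators of mitochondrial biogenesis 2 (18.2%) were higher and 3 (27.3%) lower at that p, with a median of -0.17, against 16.5% higher and 15.6% lower over all genes. Gabpa, the ETS factor that binds the motif counted in the promoter windows, had 15.2 and 18.9 TPM in the cKO-labelled libraries, against 49.97 and 28.1 TPM in the fl/fl-labelled libraries, a log2 fold change of -1.02 ± 0.30 (SE). Ppara, a fatty acid receptor, had 1.83 and 2.06 TPM in the cKO-labelled libraries, against 0.83 and 1.25 TPM in the fl/fl-labelled libraries, a log2 fold change of 1.03 ± 0.30 (SE). Genes named for proteins of the cytosolic ribosome, a list that also takes in ribosomal S6 kinases by name, had 51 of 98 higher at an unadjusted p under 0.05 and 1 lower (52% higher, or 35.7% with the offset, against 37.9% and 26.9% of all genes under 500 bases). Their median was 0.65 on counts and 0.50 with the offset, and their median effective length was 466 bases.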

How the data were processed

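Polyadenylated mRNA of mouse epidermis was sequenced in 4 libraries, 2 per group. The authors deposited estimated counts per gene that were not normalized, per the file headers a read count, with 11% to 13% of values in a library not whole. The deposited TPM and FPKM values, per the file headers, correct for length and library total. The deposited normalized count (a signal) was left unused. The submitters' processing notes name the build GRCm39 and the tools DESeq2 1.4.5, RSEM 1.3.1 and Bowtie2 2.3.4.3. Annotation, filters and strand handling: not given in the sources used here.

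Estimated counts were rounded and fitted with edgeR 4.0.16 in R 4.3.3 (TMM factors, filterByExpr, quasi-likelihood F-test on group, 2 residual degrees of freedom), with Benjamini-Hochberg adjustment over all genes tested and a threshold of 0.05. Intervals in the plot of named members are 95% intervals. The effective length of a gene in a library was derived as its count over its FPKM and the library total, and entered a second fit as an offset, an alternative chosen after seeing the data. For 1908 of the tested genes with no such length in every library (minimum FPKM 0.5) no length difference was entered. DESeq2 1.42.0, limma 3.58.1 on log2(TPM + 1) or log2(TPM + 0.1), limma-voom, other scalings and filters, the replicate number as a block, removal of the length trend and leaving out each library were alternatives. The edgeR script was tested on simulated data. With 2 against 2 libraries an exact two-sided permutation test cannot go below 0.333, and none was run.

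The members and lists were chosen with earlier results of these data known. Named members are the tissue-limited isoforms and their partners, and in each class the most abundant member and up to 2 members of smallest p in each direction. Of the members, 24 had counts that were not whole in at least 1 library, Uqcrc2, Cox11 and Mrpl4 among those named; their reads can be shared with near-identical copies or overlapping genes and their values are uncertain. Motifs were counted in RefSeq promoter windows (GRCm38.p6), and protein sequences were not used here.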

Additional observations from a re-analysis of the deposited data

How the results depend on the processing

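The settings were compared for the members as a whole and for 49 named members under 23 settings. With all 4 libraries counted, 57 members were higher at an unadjusted p under 0.05 and 1 was lower, 0 passed the adjusted threshold, and the median log2 fold change was 0.37. Members called at the adjusted threshold numbered 29 with DESeq2 (all higher, against 7.93% of all genes), 13 with no scaling factors and 1 with upper-quartile factors. The shares over all genes with no scaling factors or with upper-quartile factors are not given here, so those counts were not read as a result. On log2(TPM + 1) the median was 0.10 and on log2(TPM + 0.1) it was 0.11, with 20 higher and 9 lower in each. On the first of these scales all genes had a median of -0.16. There the share of members higher (10.8%) was near that of all genes (11.3%), and 4.86% were lower, against 22.4% of all genes. With the length trend removed the median was 0.27, on a scale where all genes had a median of 0.11. Members lower numbered 0 with DESeq2, limma-voom, upper-quartile factors and no filter, and 2 with the effective-length offset. Leaving out 1 library at a time gave medians of 0.26 to 0.45, 23 to 59 members higher, 0 to 3 lower and 0 to 4 called, and with the offset medians of 0.17 to 0.37 (0.23 without the first cKO-labelled library), 9, 21, 30 or 35 higher, 0 to 3 lower and 0 to 4 called. The replicate number as a block left 30 members higher and 0 lower, and the deviations of same-numbered libraries correlated at -0.13, so the number was not read as a pairing. With the first library of each group paired with the second of the other, a pairing chosen after seeing the data, 75 were higher and 2 lower. The shares over all genes with either block are not given here, so neither count was read as a result. Under these settings 138 values of class medians stayed within the spread between libraries and 76 did not. Medians below 0 arose for complex II subunits (down to -0.09) and complex II assembly factors (down to -0.17, on log2(TPM + 0.1)).

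Of the 49 named members 10 changed sign somewhere. With TPM (both pseudocounts) Ndufa4 stood at -0.15, Sdhb at -0.02 and Mrpl33 at -0.14. With the offset and without the second cKO-labelled library Cox6a2 stood at -1.91, Cox7a1 at -0.81, Mrpl33 at -0.31 and Ndufa4 at -0.00, and without that library alone Cox6a2 stood at -1.72, Cox7a1 at -0.03 and Cox6b2 at 0.13. Without the first fl/fl-labelled library Sdhaf3 stood at 0.09, Sdhaf4 at 0.06 and Cox11 at 0.02, and with the offset too Sdhaf3 at 0.14, Cox11 at 0.02, Ndufa4 at -0.06, Sdhb at -0.05 and Mrpl33 at -0.19. Without the first cKO-labelled library Sdhaf4 stood at 0.04. Sdha and Sdhaf4 stood at 0.03 and 0.05 with upper-quartile factors, at 0.01 and 0.04 with no scaling, and Sdha at 0.06 with the length trend removed. Leaving out 1 library on counts gave ranges of -1.72 to 3.96 for Cox6a2, -0.03 to 3.21 for Cox7a1, -1.05 to 0.13 for Cox6b2, -1.40 to 0.09 for Sdhaf3, -0.12 to 0.06 for Sdhaf4 and -0.71 to 0.02 for Cox11. The cause was not tested. Counting error limits Cox6a2, Cox7a1, Cox8b, Cox4i2 and Cox6b2, which had counts under 40 in 3 or more libraries.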
